A study of Drosophila melanogaster with 20 samples.

Results

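Loss of FNE alone was described here as the difference in RNA level between heads of Δfne flies, which lack the neuronal RNA-binding protein FNE but keep its relative RBP9, and heads of wild-type flies. The genes described were those with a mean normalised count above 10 over the 10 libraries of both genotypes, which held for 10639 of the 17558 genes in the count table. The wild type was the w1118 stock. Females of the Δfne group carried the fneΔ deficiency over the fneKOZ2 allele, and males carried 1 of these alleles on their single X chromosome, the chromosome on which fne lies. The remaining genotypes of the series were used only for comparison. Δrbp9 flies carried rbp9P2690 over the deficiency Df(2L)ED206, and ΔfneΔrbp9 flies combined both sets of lesions. All flies were adults decapitated 1 day after eclosion, with males and females pooled in each library and 5 libraries per genotype. The sources used here do not say whether the mutant stocks had been crossed into the w1118 background. Loss of FNE and other differences between the stocks therefore cannot be told apart in this comparison alone.

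FNE (found in neurons) belongs to the ELAV family, whose members bind U-rich stretches of RNA in neurons and act on splicing, on the choice of the 3′ end and on RNA stability. ELAV itself is mostly nuclear, whereas FNE and RBP9 are found mainly in the cytoplasm. A head library also contains RNA of photoreceptors, glia, muscle, fat body, blood cells (hemocytes) and cuticle-forming cells. Genes that act in all of these tissues were therefore read beside those of the nervous system. In whole heads, fewer cells of a type and less RNA per cell cannot be told apart.

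Total counts ranged from 15923472 to 21064462 in wild type and from 13482783 to 25325636 in Δfne (exact permutation test, two-sided, p = 0.667). Defining markers of neurons, glia, photoreceptors and muscle were present in every library, and 0 of the 22 tested were called. Summed over 5 neuronal markers, the level was 2540 to 2780 CPM (counts divided by the scaled library size and expressed per 1 M counts) in wild type and 2600 to 2910 CPM in Δfne. Some libraries stood apart. Gut enzyme markers summed to 367 CPM in Δfne replicate 5, against 2.4 to 6.95 CPM in the rest of that group and 0.125 to 6.9 CPM in wild type. The germline marker osk reached 13.9 CPM in Δfne replicate 3, against at most 0.392 CPM in wild type. Antimicrobial peptide genes summed to 825 CPM in wild-type replicate 2, against 55.5 to 209 CPM in the rest of that group. Yolk protein RNA, made by the female fat body, varied more within wild type (2050 to 18400 CPM) than within Δfne (4020 to 8340 CPM; exact permutation test, two-sided, p = 0.262, smallest possible p 0.00794). The male-specific roX RNAs summed to 1070 to 1270 CPM in wild type and to 1120 to 1250 CPM in Δfne (exact p = 0.937).

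The targeted gene was read first. fne, at X:12917477-12950417 (dm6), had 209, 189, 203, 185 and 178 CPM in the wild-type libraries and 75.8, 97, 83.2, 95.4 and 80.7 CPM in Δfne. The groups did not overlap, and the log2 fold change was -1.16 ± 0.076 (SE; adjusted p = 1.32e-06, edgeR quasi-likelihood test with Benjamini-Hochberg adjustment, as for all adjusted p-values below). RNA from the locus thus remained in Δfne, and counts per gene do not show which exons it came from. Rbp9, the closest relative of fne, had 499, 490, 499, 474 and 431 CPM in wild type and 548, 617, 606, 616 and 594 CPM in Δfne. Its groups did not overlap either, but the log2 difference of 0.32 ± 0.053 (adjusted p = 0.00133) lay under the fold change cutoff of 0.5. elav differed by 0.08 on the log2 scale (adjusted p = 0.253) and the granule protein gene stau by 0.19 (adjusted p = 0.161), and neither was called. The long noncoding RNA mimi, a component of neuronal granules, had 897 to 1010 CPM in wild type and 807 to 880 CPM in Δfne, a log2 difference of -0.15 ± 0.0459 (adjusted p = 0.04) that was not called.

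Of the 3 tested genes on each side of fne, 2 were called. hec, a receptor gene that lies on the opposite strand just past the 3′ end of fne, had 3.95 to 5.61 CPM in wild type and 2.33 to 2.96 CPM in Δfne (log2 fold change -0.86 ± 0.122, adjusted p = 0.000411). CG12716 had 0.0981 to 0.37 CPM in wild type and 1.11 to 1.8 CPM in Δfne (log2 fold change 2.86 ± 0.293, adjusted p = 3.92e-05). mRpL49, Brms1, CG4645 and rsh had log2 differences of 0.05 to 0.2 and were not called. Within 1000 kb of the fne start, 10 of 139 tested genes were called, 7.19%, close to the share over all genes.

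Over all genes, 742 of 10639 were called at an adjusted p below 0.01 and an absolute log2 fold change above 0.5 (6.97%), 372 higher in Δfne (3.50%) and 370 lower (3.48%). Libraries of the groups did not overlap for 720 of the called genes, while over all tested genes 1873 (17.6%) did not overlap. Most calls were moderate: 351 exceeded 1 on the absolute log2 scale and 127 exceeded 2. Called genes had a median mean normalised count of 165, below the median of 456 over all tested genes. By annotated type, calls made up 6.58% of protein-coding genes, 14.3% of noncoding RNAs, 11% of small nucleolar RNAs and 18.2% of 44 pseudogenes. The X chromosome, which carries fne, had 93 calls among 1679 tested genes (5.54%), and the large autosome arms had 6.99% to 7.79%.

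**Figure D1:**
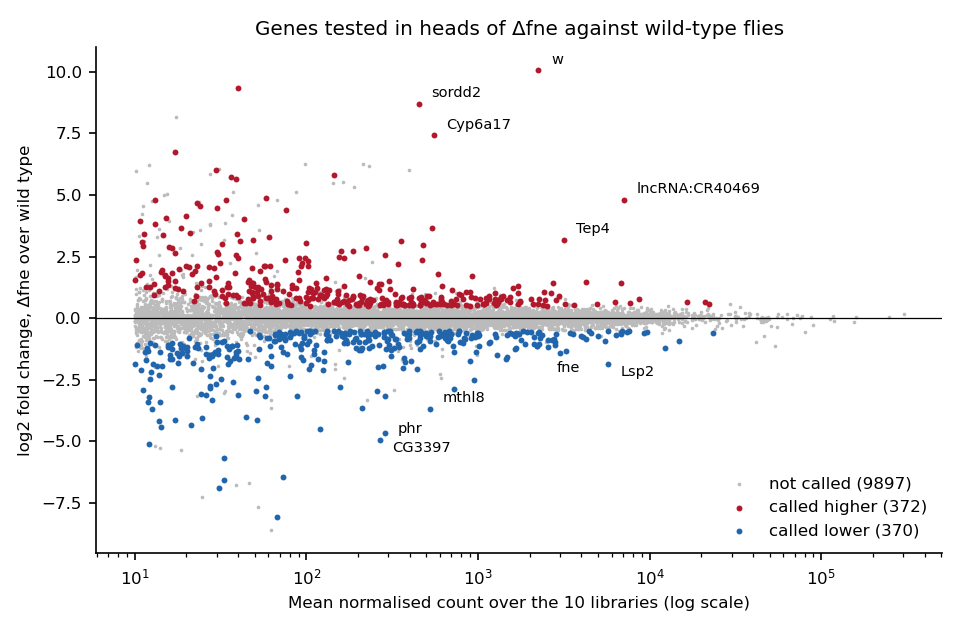
Each point is a tested gene. The horizontal axis is the mean normalised count over the 10 libraries (log scale) and the vertical axis is the log2 fold change of Δfne over wild type. The 372 genes called higher (red) and the 370 called lower (blue) spread on both sides of 0, with w highest at 10.07 and fne at -1.16. The unlabelled red point between w and sordd2 is Cyp12d1-d.

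The largest increase was in white (w), which encodes a transporter of eye pigment precursors. w had 0.245, 0.431, 0, 0.308 and 0.0579 CPM in wild type and 243, 230, 241, 253 and 254 CPM in Δfne (log2 fold change 10.07 ± 0.215, adjusted p = 1.37e-10). The w1118 stock is defined by a null allele of w. sordd2 was likewise nearly absent from wild type, at 0.0479 to 0.308 CPM, and had 46.9 to 51.7 CPM in Δfne. The noncoding RNA lncRNA:CR40469 rose from 22 to 29.4 CPM in wild type to 704 to 783 CPM in Δfne, the largest gain in CPM of all called genes. CG5697 rose by 3.66 and CG14715 by 2.86 on the log2 scale, without overlap between groups. CG18180 had 0.0479 to 0.376 CPM in wild type and 6.25, 4.49, 2.81, 3.89 and 59.8 CPM in Δfne. Its highest value fell in the library with gut enzyme RNA, and without that library the log2 fold change was 3.98 rather than 5.83 (adjusted p = 4.19e-05). Leaving out any single wild-type library moved its adjusted p to between 0.0113 and 0.0155, and DESeq2 gave it no adjusted p.

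Among the decreases, CG3397 fell from 25, 37.7, 37.5, 20.8 and 20.7 CPM in wild type to 0.662, 1.11, 0.69, 0.982 and 1.08 CPM in Δfne (log2 fold change -4.94 ± 0.252). phr, which encodes a DNA photolyase that repairs ultraviolet damage, fell from 28.9, 29.4, 27.1, 29.5 and 35.4 CPM to 1.25, 1.11, 0.986, 1.02 and 1.6 CPM (-4.66 ± 0.126, adjusted p = 9.73e-10). mthl8, a Methuselah-like receptor gene, had 49.9 to 54.3 CPM in wild type and 1.33 to 10.4 CPM in Δfne. CG17005, CG7900 and CG43968 fell by 4.48, 3.66 and 2.78 on the log2 scale, each without overlap between groups. For 17 called genes, all 5 libraries of 1 genotype held at most 3 counts. The most abundant of these was the antisense RNA asRNA:CR45822, with 7.29 CPM in wild type and at least 44.6-fold less in Δfne (floor of 3 counts per library). Reads from an antisense gene and its partner are separable only where counting used strand, which the sources used here do not state.

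Genes of transmitter signalling, ion channels and synaptic vesicles were called rarely, beside 6.97% of all genes tested. An unadjusted p below 0.05 in the edgeR test was found for 3729 of the 10639 genes tested. Among 52 tested transmitter receptors, 42 voltage-gated and leak channels and 20 genes of transmitter synthesis and transport, 0 were called by edgeR and 0 by DESeq2, although 22, 19 and 14 of them had an unadjusted p below 0.05. Their log2 differences ran from -0.51 to 0.38, from -0.36 to 0.45 and from -0.35 to 0.41. Without wild-type replicate 5, 1 gene of transmitter synthesis and transport was called. Of 38 synaptic vesicle and active zone genes, Syt7, a calcium sensor of the synaptotagmin family, was called (150 to 176 CPM in wild type, 218 to 269 CPM in Δfne, log2 fold change 0.53). It fell to 0.47 without Δfne replicate 4 and to 0.50 without wild-type replicate 4, at or under the cutoff. Also 0 of 77 cytoplasmic ribosomal protein genes, 0 of 70 nuclear genes of oxidative phosphorylation and 0 of 26 muscle genes were called by either tool. Unadjusted p-values below 0.05 occurred in 10, 9 and 2 of them. Among 14 glial and 14 circadian clock genes edgeR and DESeq2 called 0, with 7 and 6 at an unadjusted p below 0.05, and without wild-type replicate 5 each list had 1 call.

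**Figure D2:**
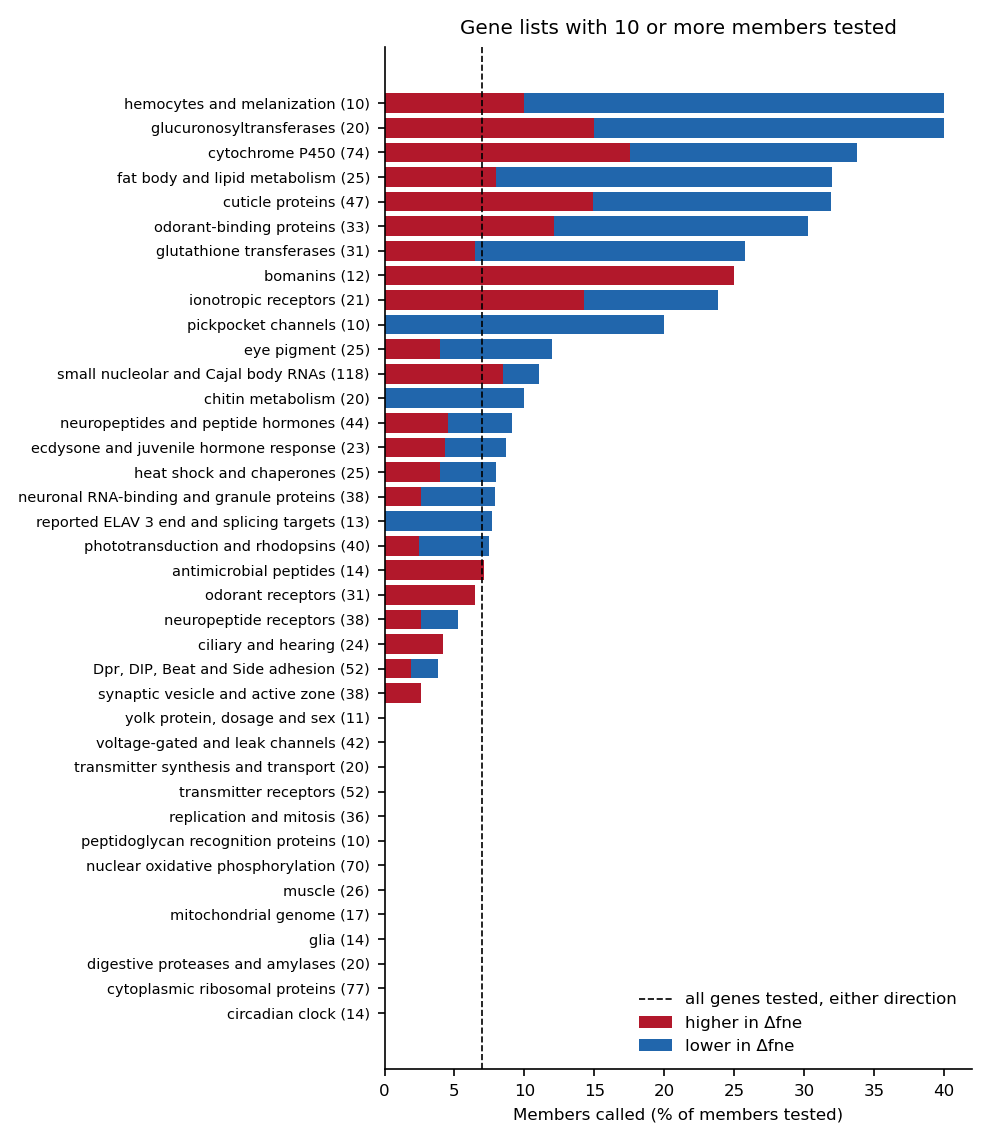
For each gene list with 10 or more tested members (number tested in brackets), the bars give the percentage of tested members called higher (red) or lower (blue) in Δfne, and the dashed line marks the 6.97% called over all genes. Glucuronosyltransferases (40%), cytochrome P450 genes (33.8%), cuticle proteins (31.9%) and odorant-binding proteins (30.3%) lie far to the right of the line, and the lists of transmitter receptors, voltage-gated channels and ribosomal proteins have no bar.

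The 2 called genes among 52 immunoglobulin adhesion genes of the Dpr, DIP, Beat and Side families moved in opposite directions. They were 3.85% of the list, beside 6.97% of all genes tested. dpr21 had 15.1, 14.1, 14.8, 12.7 and 15.3 CPM in wild type and 46.3, 46.6, 53, 53.1 and 48.3 CPM in Δfne (log2 fold change 1.78 ± 0.0665, adjusted p = 1.86e-08). DIP-epsilon had 169, 162, 168, 175 and 151 CPM in wild type and 84.9, 76.3, 68.1, 73.5 and 74.8 CPM in Δfne (-1.13 ± 0.0607, adjusted p = 2.77e-07). The Dpr and DIP proteins are cell-surface partners that mark neuron types. For both genes every Δfne library lay outside the wild-type range. The same held for 720 of the 742 called genes, and for 17.6% of all genes tested.

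Of 44 neuropeptide and peptide hormone genes, 4 were called (9.09%, near the 6.97% of all genes tested). The insulin-like peptide genes Ilp3 and Ilp5, expressed in the insulin-producing cells of the brain, both fell. Ilp3 had 21, 20.4, 21.9, 21.1 and 20.6 CPM in wild type and 11, 11.4, 11.3, 12.9 and 11.6 CPM in Δfne (log2 fold change -0.85 ± 0.0556, adjusted p = 1.32e-06). Ilp5 had 12.9 to 15.8 CPM in wild type and 8.63 to 10.5 CPM in Δfne (-0.66 ± 0.078, adjusted p = 0.000114). CCHa2 rose from 61 to 80.5 CPM to 106 to 117 CPM (0.59 ± 0.0711), and CNMa rose from 0.245 to 0.627 CPM to 0.786 to 1.65 CPM. In a fit of all 4 groups, and with yolk protein RNA as a covariate, 8 of the list were called, 6 of them higher. Among 38 neuropeptide receptor genes 2 were called (5.26%, near the 6.97% of all genes tested). AstC-R1, a receptor of allatostatin C, fell from 29 to 32.3 CPM to 8.57 to 11.2 CPM (-1.61 ± 0.0811, adjusted p = 1.77e-07), and CCAP-R rose by 0.58.

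RNA-binding and granule protein genes were called at close to the background rate, 3 of 38 (7.89%). Beside fne itself, the X-linked gene ssx (sister of Sex-lethal), which encodes a relative of the splicing regulator Sex-lethal, fell from 111, 108, 119, 117 and 111 CPM in wild type to 74.8, 74.7, 73.5, 71.4 and 71 CPM in Δfne (-0.63 ± 0.0387, adjusted p = 8.59e-07). Hrb87F, which encodes a protein of the hnRNP A family, rose from 23.1 to 29.2 CPM to 37.3 to 44.9 CPM (0.60 ± 0.0781). Of 13 genes listed as reported targets of ELAV in splicing or 3′ end choice, only fne, the targeted gene itself, was called. Counts per gene do not separate isoforms, so changes of splicing or of 3′ ends were not measured.

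Of 40 photoreceptor genes 3 were called, a share close to the background. Rh4, the ultraviolet-sensitive rhodopsin of a subset of R7 cells, had 329, 325, 326, 330 and 335 CPM in wild type and 517, 486, 516, 509 and 507 CPM in Δfne (0.62 ± 0.0347, adjusted p = 3.68e-07). ninaB, which encodes the oxygenase that makes the visual chromophore, fell from 218 to 235 CPM to 144 to 153 CPM (-0.60 ± 0.0374). trpl, a light-gated channel gene, fell from 1320 to 1700 CPM to 869 to 1180 CPM (-0.59 ± 0.0924). Of 25 eye pigment genes 3 were called (12%, beside 6.97% of all genes tested). Besides w both were lower: Hn, which encodes phenylalanine hydroxylase, had -0.54 and pr, of the pteridine pathway, had -0.65 (adjusted p = 0.00996). Without Δfne replicate 1, w was the 1 call left in the list. The call of pr was lost under 8 of the 10 omissions of a single library (adjusted p up to 0.0259). The call of Hn was lost without Δfne replicate 1 (-0.50) or wild-type replicate 2 (-0.48). In neither gene did the sign change.

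Chemosensory genes divided by family. Odorant-binding proteins, small secreted carriers of odorants and other ligands, had 10 of 33 tested members called (30.3%), 4 higher and 6 lower. Obp99d fell from 27.5, 25.7, 19.2, 27.5 and 40.7 CPM to 3.31, 3.96, 2.27, 2.4 and 4.02 CPM (-3.15 ± 0.225, adjusted p = 2.36e-06). Obp44a, the most abundant of those called, rose from 771 to 1040 CPM to 1340 to 1440 CPM (0.66 ± 0.0717). Obp84a rose by 1.17 and Obp59a, which acts in humidity sensing, by 0.84, while Obp83cd, Obp19c and Obp99b fell by 1.02, 1.01 and 0.81 on the log2 scale. Odorant receptors had 2 of 31 called (6.45%, near the 6.97% of all genes tested), both higher. Orco, the shared coreceptor, rose from 41.1 to 50.5 CPM to 64.8 to 74.7 CPM (0.58 ± 0.0662), and Or46a rose by 1.42. Without wild-type replicate 5, 4 were called, all higher. Of the 61 receptors in the table, 30 were below the count minimum.

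Ionotropic receptors had 5 of 21 tested members called (23.8%), of 66 in the table. Without wild-type replicate 3, 3 were called, all higher. Ir25a, a coreceptor, rose from 10.8 to 13.5 CPM to 15.7 to 19.8 CPM (0.57 ± 0.0805), and Ir41a and Ir47b, which is annotated as a pseudogene, rose by 1.1 and 1.82. Ir100a had 0.767 to 1.82 CPM in wild type and at most 2 counts in any Δfne library, at least 7.88-fold less. Gr66a, a receptor of bitter-sensing neurons, rose from 1.03 to 1.5 CPM to 1.98 to 2.95 CPM (1.0 ± 0.156). It was the 1 call among 7 tested gustatory receptors (14.3%, beside 6.97% of all genes tested), of 60 in the table. Without Δfne replicate 1 or 5, or wild-type replicate 1, 2 or 5, 2 were called, both higher. The water-taste channel gene ppk28 fell from 2.09 to 2.44 CPM to 0.618 to 0.888 CPM (-1.62 ± 0.143). It was 1 of 2 calls among 10 tested pickpocket channels (20%, beside 6.97% of all genes tested), both lower. Without wild-type replicate 1, 4 were called, 2 in each direction.

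Cytochrome P450 enzymes oxidise hormones, toxins and other small molecules, and 25 of 74 tested were called (33.8%, beside 6.97% of all genes tested), 13 higher and 12 lower. Cyp6a17, which acts in temperature preference, had 0.392, 0.24, 0.313, 0.616 and 0.174 CPM in wild type and 54.1, 56.8, 63.6, 62.6 and 60.5 CPM in Δfne (7.42 ± 0.158, adjusted p = 1.37e-10). Its direct neighbour on chromosome arm 2R, Cyp6a23, moved the other way, from 92.7, 84.9, 63.5, 86.7 and 108 CPM to 13.6, 13, 16.3, 16.3 and 17 CPM (-2.51 ± 0.133, adjusted p = 2.52e-07). The neighbouring genes are close relatives, and how the authors' counting divided reads between such copies was not tested. The adjacent genes Cyp6a9, Cyp6a20 and Cyp6a8 fell as well, by 0.89, 1.03 and 1.79 on the log2 scale.

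The second large P450 change was in the tandem pair Cyp12d1-d and Cyp12d1-p, near-identical copies whose separate values are uncertain. Cyp12d1-d had 0 counts in all 5 wild-type libraries and 3.58 to 5.36 CPM in Δfne, at least 26.1-fold more, and Cyp12d1-p had at most 3 counts in a wild-type library and 1.81 to 2.91 CPM in Δfne. Cyp4p2, Cyp6a14 and Cyp6d2 were also near the floor in wild type and rose by 4.81, 4.02 and 3.13. Cyp309a2 rose from 0.564 to 9.32 CPM to 20.1 to 36.9 CPM. Among well-expressed members, Cyp4p1 fell from 119 to 40.3 CPM on average (-1.57), Cyp9b2 from 127 to 53.9 CPM (-1.23), Cyp28a5 from 127 to 67.9 CPM (-0.90) and Cyp6d5 from 338 to 203 CPM (-0.73). Cyp4e3 rose from 84.5 to 178 CPM (1.07). The median over all 74 was -0.15 on the log2 scale, beside 0.01 over all genes tested.

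**Figure D3:**
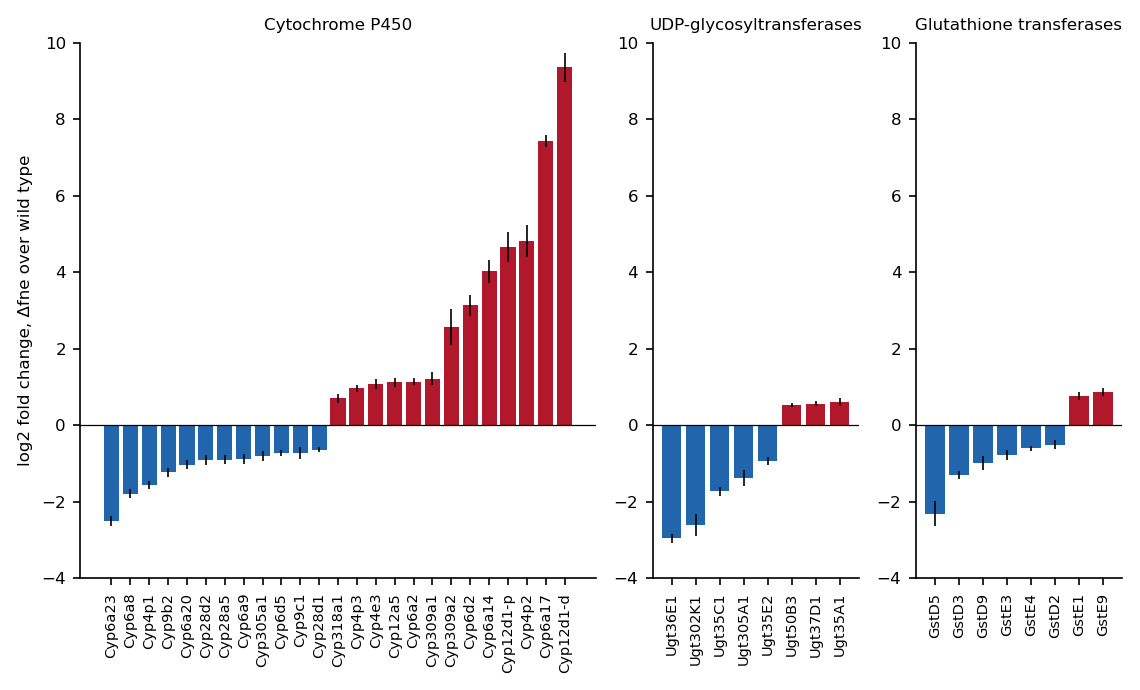
Bars give the log2 fold change of Δfne over wild type for the called members of 3 enzyme families, and error bars give the SE of the fit (5 libraries per genotype). P450 genes run from -2.51 (Cyp6a23) to 9.35 (Cyp12d1-d, at 0 counts in wild type), with 12 below and 13 above 0, and most called transferases lie below 0.

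The conjugating enzymes leaned lower. UDP-glycosyltransferases, which attach sugars to small molecules, had 8 of 20 called (40%), 3 higher and 5 lower. Ugt36E1 fell from 22.4, 29.1, 27.1, 22.6 and 22.8 CPM to 2.65, 3.56, 3.35, 2.79 and 3.56 CPM (-2.96 ± 0.114, adjusted p = 2.05e-08). Ugt35C1 fell from 61.5 to 88.3 CPM to 17.6 to 25.5 CPM (-1.73 ± 0.117), and Ugt302K1 fell by 2.60. Glutathione transferases had 8 of 31 called (25.8%), 2 higher and 6 lower. GstD3 fell from 21.4 to 26.9 CPM to 8.34 to 11.3 CPM (-1.30 ± 0.104), and GstD5 of the same cluster fell by 2.31. GstE9 and GstE1 rose by 0.87 and 0.76.

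Immune genes showed a few large increases and no common direction. Tep4, which encodes a secreted thioester-containing protein of the complement type, rose from 30.3, 32.4, 31.3, 37.3 and 38.3 CPM in wild type to 283, 307, 333, 298 and 321 CPM in Δfne (3.19 ± 0.0783, adjusted p = 3.94e-10). It was the 1 call among 5 tested members of its family (20%, beside 6.97% of all genes tested). Drsl4, a drosomycin-like peptide gene, rose from 4.93 to 6.82 CPM to 39.8 to 54.2 CPM (2.96 ± 0.112). It was the 1 call among 14 antimicrobial peptide genes (7.14%, near the 6.97% of all genes tested). Of the others, 10 had a negative log2 difference, with the high levels in wild-type replicate 2 beside them. Without that library 3 of the 14 were called, all higher, while without wild-type replicate 5 and by DESeq2 3 were called, 2 of them lower. Bomanins, short secreted peptides of the Toll response, had 3 of 12 called (25%, beside 6.97% of all genes tested), all higher. BomBc1 rose from 2.53 to 5.22 CPM to 25 to 42 CPM (3.13 ± 0.209), BomS1 from 43.7 to 118 CPM to 141 to 256 CPM (1.41 ± 0.247) and BomS2 from 216 to 316 CPM to 331 to 511 CPM (0.64 ± 0.128). BomS2 was not called when Δfne replicate 3, 4 or 5 or wild-type replicate 3 or 4 was left out (adjusted p 0.0106 to 0.0126). With Δfne replicates 3 and 5 both left out, 1 bomanin was called, BomBc1, and with yolk protein RNA as a covariate 6 were, all higher.

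Hemocyte genes were mostly lower. Of 10 tested genes of hemocytes and melanization, 4 were called (40%, beside 6.97% of all genes tested), and 9 had a negative log2 difference. Hml (hemolectin), a clotting protein and the usual hemocyte marker, fell from 197 to 339 CPM to 139 to 189 CPM (-0.75 ± 0.138, adjusted p = 0.00236). The phagocytic receptors NimC1 and Sr-CI fell by 0.79 and 1.1, and the prophenoloxidase gene PPO2 rose by 0.79. The sum over 6 hemocyte markers includes Hml and NimC1, so it is not a separate observation. It was 577 to 800 CPM in wild type and 513 to 573 CPM in Δfne, a narrow separation. Scaled over all 20 libraries, the sum was 598 to 644 CPM in Δrbp9 and 588 to 623 CPM in ΔfneΔrbp9, with overlap.

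Fat body genes fell in a subset that is strongly expressed in the larva. Of 25 tested fat body and lipid genes 8 were called (32.0%), 2 higher and 6 lower, and all 3 larval serum protein genes of the list and the fat body proteins Fbp1 and Fbp2 were among the latter. Lsp1beta had 93.7, 180, 125, 99.6 and 103 CPM in wild type and 45.8, 40, 32.9, 34.5 and 38.8 CPM in Δfne (-1.65 ± 0.175, adjusted p = 5.1e-05). Lsp2 had 234 to 797 CPM in wild type and 89.7 to 191 CPM in Δfne (-1.84 ± 0.348), and lost its call without Δfne replicate 2 or 4 (adjusted p = 0.0103 and 0.01). Lsp1alpha fell by 1.16, with an adjusted p of 0.0108 without Δfne replicate 4. tobi, an insulin-responsive glucosidase gene, fell from 62.1, 108, 91.6, 51.5 and 33 CPM to 5.67, 6.41, 9.42, 6.21 and 19.1 CPM (-2.88 ± 0.401, adjusted p = 0.00036). Pepck2 and Lip4 rose by 1.14 and 0.86. The wild-type libraries with the most yolk protein RNA, replicates 2 and 3, also had the highest Lsp2 and tobi levels. With yolk protein RNA as a covariate, the log2 fold changes kept their sign for the 120 named genes on which that fit was run, and of these Hn lost its call.

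Cuticle proteins had 15 of 47 tested members called (31.9%), 7 higher and 8 lower, with 78 further family members below the count minimum. Ccp84Ag rose from 0.188 to 0.579 CPM to 3.1 to 5.08 CPM (3.41 ± 0.262) and Cpr51A from 1.19 to 1.66 CPM to 6.18 to 7.84 CPM (2.38 ± 0.121). Cpr49Af fell from 9.05 CPM to 2.18 CPM on average (-2.06 ± 0.159), without overlap, and Ccp84Aa, in the same cluster as Ccp84Ag, fell from 7.48 to 14.2 CPM to 2.63 to 3.75 CPM (-1.72 ± 0.18). ImpL1, an ecdysone-inducible gene, fell by 2.44 and Hr38, a nuclear receptor gene that is induced by neuronal activity, rose by 0.85. These were the 2 calls among 23 genes of the ecdysone and juvenile hormone response (8.7%, beside 6.97% of all genes tested).

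Measured as CPM rather than as fold change, the largest gains after lncRNA:CR40469 were in Obp44a, CG9512 (868 to 1030 CPM in wild type, 1310 to 1600 CPM in Δfne), CG9297 (611 to 766 CPM, 1070 to 1140 CPM) and the polyubiquitin gene Ubi-p5E (116 to 327 CPM, 498 to 608 CPM). The largest losses were in CG2233, trpl, Mical, Lsp2 and Ppn. Ppn, which encodes the extracellular matrix protein papilin, fell from 529 to 710 CPM to 308 to 444 CPM (-0.60 ± 0.11). CG2233 fell by 1.23 (adjusted p = 0.00378) and Mical, an enzyme that oxidises actin, by 0.93 (adjusted p = 0.00427). CG2233 had adjusted p-values of 0.0103 to 0.0136 without Δfne replicate 1, 2 or 4 or wild-type replicate 3. Those of Mical were 0.0105 to 0.0129 without Δfne replicate 1, 3, 4 or 5 or wild-type replicate 3.

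Small nucleolar and Cajal body RNAs guide the modification of ribosomal and spliceosomal RNA. Of 118 tested members 13 were called (11%, beside 6.97% of all genes tested), 10 higher and 3 lower. scaRNA:PsiU2-55 rose from 0.753 to 1.32 CPM to 2.99 to 5.81 CPM (2.04 ± 0.228), and snoRNA:CG32479-a from 6.1 to 10.6 CPM to 19.3 to 30.4 CPM (1.51 ± 0.165). snoRNA:Psi18S-1854a fell from 1.68 to 3.01 CPM to 0.515 to 1.14 CPM (-1.49 ± 0.248). The count of calls fell to 8 without Δfne replicate 1 and to 7 without Δfne replicate 3, and DESeq2 gave 17.

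Some calls lay side by side on the chromosome. In 9 places, 3 or more neighbouring tested genes were called in the same direction, 33 genes in all. The longest run held 7 genes near the centromere of chromosome arm 2R, 2R:924636-1443935, from CG40498 to l(2)41Ab, all lower by 0.8 to 2.06 on the log2 scale. It included rl, the MAP kinase gene rolled, which fell from 176 to 202 CPM to 103 to 114 CPM (-0.83 ± 0.0478). Another run held the P450 genes from Cyp6a23 to Cyp6a8. A run on 2L joined CG17005 to 2 noncoding RNAs and Cks30A.

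Loss of FNE could be read a second time, in flies that already lacked RBP9, by comparing ΔfneΔrbp9 with Δrbp9. These 10 libraries were separate from the first 10. There, 561 of 10418 genes were called (5.38%). Of the 742 genes called in Δfne against wild type, 673 were tested in the second comparison, and 395 of them (58.7%) had the same sign, beside 51.8% over all tested genes. Calls in the same direction were made for 114 genes, 65 higher and 49 lower, which was 15.4% of the first list and 20.3% of the second. Another 31 were called in the opposite direction, and 528 were not called. The median log2 fold change of the genes higher in Δfne was 0.91 against wild type and 0.14 in the second comparison, and that of the genes lower in Δfne was -0.98 and -0.04.

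The interaction term, which tests whether the change on FNE loss differs between flies with and without RBP9, was called for 946 of 10544 genes (8.97%). It was called for 438 of the 742 genes, and for 436 of these with the sign opposite to their change in Δfne. The interaction used the same Δfne and wild-type libraries by which the 742 genes were chosen, so this count is a description. In levels scaled over all 20 libraries, the wild type lay apart from all 3 mutant groups for 302 of the 742 genes (40.7%). Both groups without FNE lay apart from both groups with FNE for 85 genes (11.5%), and Δfne lay apart from the other 3 groups for 178 (24.0%). The 742 genes were chosen for a difference between Δfne and wild type, which all of these patterns require. The shares of all tested genes with these patterns were not computed, so these counts too are a description.

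**Figure D4:**
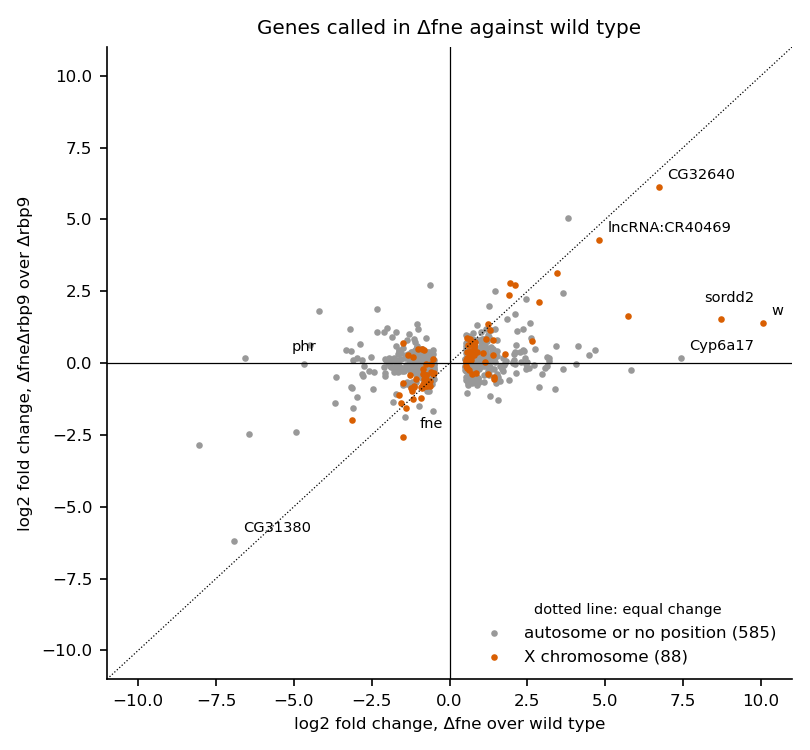
Each point is 1 of the 673 genes called in Δfne against wild type and tested in both comparisons. The horizontal axis is the log2 fold change of Δfne over wild type, the vertical axis that of ΔfneΔrbp9 over Δrbp9, orange points lie on the X chromosome and the dotted line marks equal change. Most points lie near 0 on the vertical axis, Cyp6a17 and phr among them, while fne, CG32640, lncRNA:CR40469 and CG31380 lie near the dotted line.

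Genes that changed the same way in both backgrounds were often on the X chromosome. It held 43 of the 114 genes (37.7%), beside 12.5% of the 742 and 15.8% of all tested genes, and 0 of the 31 genes called in opposite directions. Of the 85 genes for which both groups without FNE lay apart, 36 (42.4%) were X-linked. The fne lesions are themselves on the X chromosome, so that a change following loss of FNE and one carried by the rest of that chromosome cannot be told apart for these genes.

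Among genes with a mean normalised count above 100, ranked by the smaller of both changes, the shared increases were led by lncRNA:CR40469 (4.81 in Δfne against wild type and 4.28 in ΔfneΔrbp9 against Δrbp9, log2), CG5697 (3.66 and 2.43), CG13154 (2.11 and 1.69), sordd2 (8.71 and 1.55), Cyp309a2 (2.57 and 1.39) and w (10.07 and 1.39). The shared decreases were led by CG3397 (-4.94 and -2.39), CAH9, a carbonic anhydrase gene (-1.44 and -1.88), mthl8 (-3.67 and -1.39), fne (-1.16 and -1.26), Ccp84Aa (-1.72 and -1.08) and Rtel1, which encodes a helicase (-1.21 and -0.97). Of these, lncRNA:CR40469, sordd2, w, fne and Rtel1 lie on the X chromosome, where the limit given above applies. For w, the comparison with wild type also includes the null w allele of the w1118 stock. Several genes from the lists of RNA-binding proteins, peptide hormones and gustatory receptors were also called in the same direction in both comparisons. The count minimum of 100 was not applied here. ssx, which is X-linked as well, had -0.63 and -0.64. The autosomal genes had -0.85 and -0.57 (Ilp3), -0.66 and -0.99 (Ilp5), 0.59 and 0.66 (CCHa2), and 1.0 and 0.75 (Gr66a). None of the interaction terms of ssx, Ilp3, Ilp5, CCHa2 and Gr66a was called (adjusted p 0.0214 to 0.991). Rh4, ninaB, Orco and Ir25a changed in the same direction in the second comparison but under the fold cutoff, by 0.46, -0.43, 0.29 and 0.36.

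**Figure D5:**
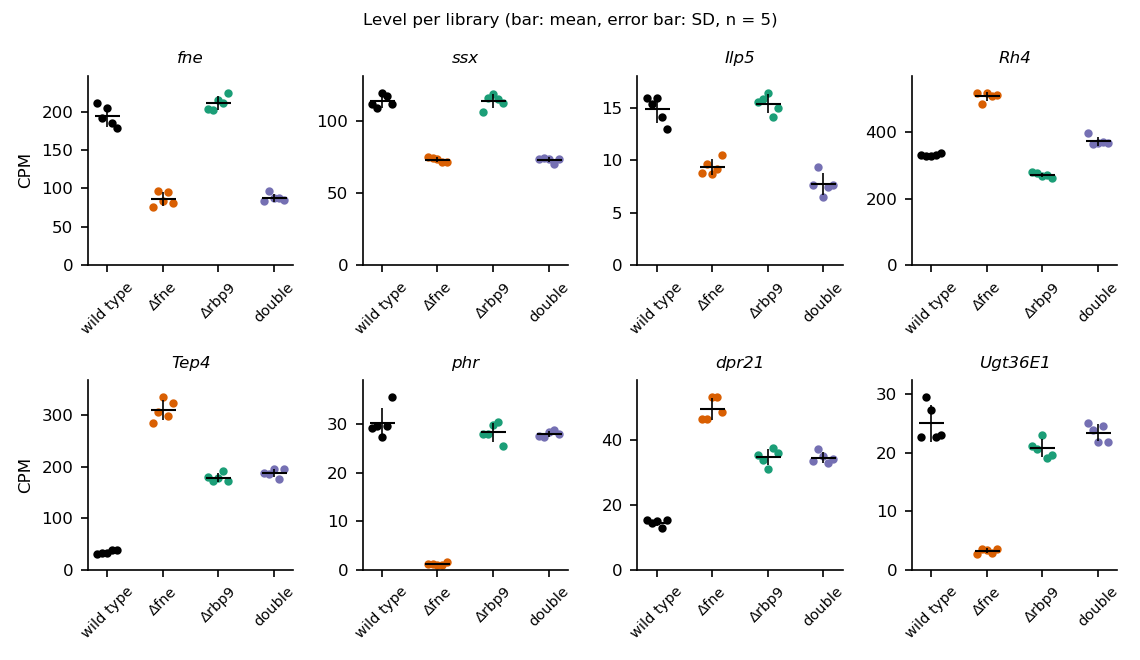
Points give the level of a gene in each library (CPM, scaled over all 20 libraries), bars the mean and error bars the SD of 5 libraries per group, where double stands for ΔfneΔrbp9. fne, ssx, Ilp5 and Rh4 (top row) differ between groups with and without FNE in both backgrounds. Of these, Rh4 was not called between Δrbp9 and ΔfneΔrbp9 (log2 difference 0.46, under the cutoff), and fne and ssx are X-linked. Tep4, phr, dpr21 and Ugt36E1 (bottom row) differ between wild type and Δfne and were not called between Δrbp9 and ΔfneΔrbp9.

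Several of the largest changes were not called in the second comparison. The genes named here were chosen on the Δfne and wild-type libraries, which also enter the interaction, so its values are a description. In wild type, Tep4, phr, Cyp6a17, dpr21 and DIP-epsilon averaged 34.2, 30.3, 0.349, 14.5 and 166 CPM. Tep4 had 179 CPM in Δrbp9 and 188 CPM in ΔfneΔrbp9 on average (log2 difference 0.07 ± 0.0391; interaction -3.11, adjusted p = 7.02e-16). phr had 28.3 and 28 CPM there (interaction 4.65), Cyp6a17 30.6 and 34.5 CPM (interaction -7.24), dpr21 34.8 and 34.6 CPM (interaction -1.78) and DIP-epsilon 61 and 64.8 CPM (interaction 1.22). Of the 25 P450 genes called in Δfne, 3 were called in the same direction in ΔfneΔrbp9 against Δrbp9, namely Cyp309a1, Cyp309a2 and Cyp4e3. Of the 8 glycosyltransferases this was Ugt50B3 alone, and of the 8 glutathione transferases 0, beside 15.4% of all genes called in Δfne. The P450 and glycosyltransferase counts are near that share. Cyp12d1-d, Cyp4p2, Cyp6a14, Ugt305A1 and GstD5 were among the members not tested in the second comparison. The 15.4% likewise refers to all 742 genes, of which 673 were tested there. Lsp2, Fbp1 and Fbp2 changed in opposite directions in the 2 comparisons. They fell by 1.84, 1.03 and 1.30 in Δfne and rose by 0.90, 1.37 and 1.01 in ΔfneΔrbp9 against Δrbp9, on the log2 scale.

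The direct comparison of the single mutants called 846 of 10568 genes (8.01%) between Δfne and Δrbp9. phr, Ugt36E1 and Tep4 were among them, with log2 differences of -4.57, -2.70 and 0.79 (Δfne over Δrbp9). For these genes, Δfne thus differed from the other single mutant as well as from wild type. Tep4 was also higher in Δrbp9 (179 CPM on average) than in wild type (34.2 CPM). Other genes called in Δfne against wild type were not called between the single mutants. Among them were AstC-R1, DIP-epsilon and BomBc1, with log2 differences of 0.29, 0.31 and -0.13.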

How the data were processed

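Total RNA of fly heads (725 ng per library) was sequenced in 5 libraries per genotype with a stranded, ribosomal RNA-depleted kit. The authors deposited raw counts per gene, and the submitters' processing notes name STAR, featureCounts of Subread, DESeq2 and the build dm6, with no versions or strand setting given in the sources used here. The study's methods name Ensembl release 96. Positions came from Ensembl release 115, matching 17252 of 17558 gene IDs, and the 306 unmatched IDs held 3.76% of counts.

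Genes were tested with edgeR 4.0.16 (R 4.3.3; TMM, quasi-likelihood, two-sided, Benjamini-Hochberg) over genes with a mean normalised count above 10, and called at an adjusted p below 0.01 and an absolute log2 fold change above 0.5. CPM used TMM-scaled library sizes. Totals and sums were compared by exact permutation over 252 regroupings. The test was checked on simulated data. Libraries of a group differed by more than sampling noise (chi-square per degree of freedom at least 5.46). The methods describe independent replicates, and nothing further on their separation was used.

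Members and gene lists were chosen with earlier results of these data known. Named genes were fne, Rbp9, elav, mimi and stau, the 3 tested genes on each side of fne, the 10 largest folds in each direction above a mean count of 100 without overlap, the 5 largest CPM gains and losses, the 6 largest shared changes in each direction, and called list members (the 6 largest folds of longer lists). Further P450 genes, Fbp1, Lip4, Ugt50B3, asRNA:CR45822, CG32640, CG31380 and the genes of neighbouring runs were named after their values were seen. Alternatives varied scaling, tool, filters, cutoffs, samples in the fit, a replicate block and single libraries, with DESeq2 1.42.0 as the second tool.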

Additional observations from a re-analysis of the deposited data

Results flagged for a closer look

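In groups of 5 libraries, 13 of 122 tested groups had a highest or lowest library far from the rest by Dixon's ratio (critical value 0.71), where chance gives about 1 in 20. In Δfne replicate 5, CG18180 reached 59.8 CPM, tobi 19.1 CPM, summed gut markers 367 CPM, summed digestive enzyme genes 804 CPM and summed lysozymes 56.1 CPM. In Δfne replicate 2, mthl8 (10.4 CPM) and Mical (701 CPM) were highest, and CG12716 (1.11 CPM) and Rtel1 (9.79 CPM) were lowest. Summed germline markers reached 17.1 CPM in Δfne replicate 3. In wild type, summed antimicrobial peptide genes reached 825 CPM and CG18180 fell to 0.0479 CPM in replicate 2, and CG5697 fell to 2.88 CPM in replicate 3.

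The interaction term was called for 438 of the genes called in Δfne, and for 19 of the 20 genes with the largest folds. Among these was w, for which the w1118 wild type carries a null allele. It averaged 0.21 CPM in wild type and 245, 127 and 334 CPM in Δfne, Δrbp9 and ΔfneΔrbp9. How much of the interactions came with the stocks was not tested. The log2 interaction was -8.67 for w, -7.15 for sordd2, -7.24 for Cyp6a17, -6.07 for CG18180, -0.53 for lncRNA:CR40469, -3.11 for Tep4, -3.22 for BomBc1, -3.34 for Drsl4 and -3.7 for CG14715, all of which were higher in Δfne. Of the genes lower in Δfne, it was 2.56 for CG3397, 4.65 for phr, 5.14 for CG17005, 2.31 for mthl8, 3.17 for CG7900, 2.31 for Obp99d, 3.14 for Ugt36E1, 3.54 for tobi, 2.35 for CG43968 and 2.74 for Cyp6a23. The genes were chosen on the Δfne and wild-type libraries that also enter the interaction.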

How the results depend on the processing

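The count of 742 genes moved by over 1.5 times only with the fold change cutoff, to 1309 without one and 351 above 1 (log2). In the same way the ΔfneΔrbp9 and Δrbp9 comparison gave 2177 and 170, the interaction 1746 and 379, and Δfne against Δrbp9 2197 and 333. Without single libraries these counts ran from 640 to 822, from 460 to 658, from 865 to 995 and from 755 to 899. Replicate numbers did not pair the libraries, since same-numbered Δfne and wild-type libraries correlated at -0.212 to 0.3 and 0 of them correlated best with their own number. With the number as a replicate block 665 genes were called in Δfne, and 487, 916 and 688 in the other comparisons. DESeq2 called 861 in Δfne. Of 120 named genes, called or not, 0 changed sign under the alternatives run on them, and 9 calls were lost with the block and 4 to 13 without a single library. After seeing the data, Δfne replicates 3 and 5 were left out together (580 genes, 17 named calls lost) and yolk protein RNA was added as a covariate (843 genes, 1 named call lost, and 10 of the 20 digestive enzyme genes called, all higher).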

Other observations

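Proteins of the small nucleolar ribonucleoprotein particles were looked up after the values of their RNAs had been seen, and are given as a description. Of 7 tested genes 5 were called higher in Δfne, beside 3.50% of all genes tested. Fib, the fibrillarin methyltransferase, had 9.12, 10.5, 10.5, 8.38 and 7.82 CPM in wild type and 15.4, 14.7, 14.1, 16 and 15.5 CPM in Δfne (log2 fold change 0.71). Nop56, nop5 and Nop60B rose by 0.54, 0.58 and 0.59, and Nop10 had an adjusted p of 0.00301 by edgeR. Gar1 and NHP2 were not called (adjusted p 0.0298 and 0.0619). In ΔfneΔrbp9 against Δrbp9, Fib, Nop56, nop5 and Nop60B changed by -0.59, -0.59, -0.76 and -0.68, each called lower. NHP2 was called lower there too (-0.51), and Nop10 and Gar1 were not called (-0.44 and -0.22, adjusted p 0.0104 and 0.352 by edgeR). Scaled over all 20 libraries, Fib, Nop56, nop5 and Nop60B averaged 9.34, 23.4, 23.6 and 26.4 CPM in wild type. They averaged 15.2, 34, 35.1 and 39.6 CPM in Δfne and 13, 34.1, 38.1 and 38.4 CPM in Δrbp9. In ΔfneΔrbp9 they averaged 8.56, 22.7, 22.7 and 24.1 CPM. None of them was called between Δfne and Δrbp9.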
